A study of Mus musculus with 11 samples.

Results

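The genes that recognise double-stranded RNA, or pass its signal on, were followed in HSCs (hematopoietic stem cells), from which all blood cells of the mouse descend. They were 10 genes chosen by name, of 22180 genes measured: the endosomal receptor Tlr3 and its adaptor Ticam1; the cytosolic RNA helicases Rigi (named Ddx58 on the array), Ifih1 and Dhx58; their adaptor Mavs; the ubiquitin ligase Trim25; and the RNA-binding effectors Eif2ak2, Zbp1 and Adar. The choice was made with earlier results of these data known. Each of the 10 had 1 probe set paired with its symbol alone, and probe sets paired with several symbols were not counted. Cells had been taken by flow sorting from animals in 4 groups. Mice received all-trans retinoic acid (ATRA, an active form of vitamin A) and then polyI:C (pIC, a synthetic double-stranded RNA) in the ATRA+pIC group (3 arrays), pIC alone (2 arrays), ATRA alone (3 arrays), or PBS, the saline control (3 arrays). Not given in the sources used here are the strain, age, doses, intervals and sorting gate, and whether replicates were separate mice or pools. The p-values therefore cover no more than the spread among these samples, and that spread may be technical.

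Double-stranded RNA is a by-product of viral replication that cells detect in separate compartments. TLR3 detects it in endosomes and signals through TICAM1 (also called TRIF). RIG-I, encoded by Rigi, and MDA5, encoded by Ifih1, detect it in the cytosol and signal through MAVS on mitochondria; both routes lead to interferon production. LGP2, encoded by Dhx58, is a related helicase that tunes the other two, and TRIM25 is a ubiquitin ligase that promotes RIG-I signalling. PKR, encoded by Eif2ak2, halts translation when it binds double-stranded RNA. ZBP1 binds nucleic acid in the left-handed Z form and can start necroptosis, a form of cell death, and ADAR edits adenosine to inosine in cellular double-stranded RNA, which limits its detection. Several of these genes are themselves interferon-induced, and interferon is known to bring quiescent HSCs into division.

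RefSeq promoters (build GRCm38.p6, from 250 bases before to 50 after the annotated start) were found for 8 of the 10 genes. They were searched on both strands for the core of the interferon-stimulated response element, to which interferon-activated factors bind, written GAAANNGAAA. It was present in the promoters of Rigi, Ifih1 and Eif2ak2, and in 3.44% of 32851 mouse promoters of the same length. A looser form, GAANNNGAA, which every core match contains, was present in 21.5% of promoters, and among these genes also in Trim25 and at the third of 3 annotated Adar starts. The gamma-activated site TTCNNNGAA was present in 8.3% of promoters and, among these genes, in Eif2ak2 and at the third Adar start. None of these letters occurred in the windows of Tlr3, Ticam1 and Mavs or at the other 2 Adar starts. Dhx58 and Zbp1 had no entry. The sequences below let the 3 core matches be compared with a looser match and with Mavs, an adaptor gene without one; each runs 5′ to 3′ on the strand of the gene. Rigi lies at chr4:40239776-40240075 (minus strand), Ifih1 at chr2:62646206-62646505 (minus strand), Eif2ak2 at chr17:78882523-78882822 (minus strand), Adar at chr3:89730468-89730767 (plus strand) and Mavs at chr2:131233813-131234112 (plus strand). Capitals mark the core in the first 3 and the looser form in Adar.
Rigi: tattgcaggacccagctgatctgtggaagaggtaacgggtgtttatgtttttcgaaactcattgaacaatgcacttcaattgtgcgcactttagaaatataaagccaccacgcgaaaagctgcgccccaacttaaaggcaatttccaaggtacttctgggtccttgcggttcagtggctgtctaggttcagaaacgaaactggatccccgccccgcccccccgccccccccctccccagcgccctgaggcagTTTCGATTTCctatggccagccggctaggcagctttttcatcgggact
Ifih1: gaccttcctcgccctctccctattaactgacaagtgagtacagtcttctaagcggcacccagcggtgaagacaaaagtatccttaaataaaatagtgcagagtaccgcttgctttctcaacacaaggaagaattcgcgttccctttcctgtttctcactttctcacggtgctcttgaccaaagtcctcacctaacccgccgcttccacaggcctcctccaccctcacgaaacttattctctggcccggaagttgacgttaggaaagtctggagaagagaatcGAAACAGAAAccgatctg
Eif2ak2: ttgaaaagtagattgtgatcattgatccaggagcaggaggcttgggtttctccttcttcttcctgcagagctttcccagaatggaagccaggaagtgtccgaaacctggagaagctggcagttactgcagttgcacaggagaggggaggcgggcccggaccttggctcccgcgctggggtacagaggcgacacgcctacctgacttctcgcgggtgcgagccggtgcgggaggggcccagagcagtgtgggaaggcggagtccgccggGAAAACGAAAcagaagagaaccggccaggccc
Adar: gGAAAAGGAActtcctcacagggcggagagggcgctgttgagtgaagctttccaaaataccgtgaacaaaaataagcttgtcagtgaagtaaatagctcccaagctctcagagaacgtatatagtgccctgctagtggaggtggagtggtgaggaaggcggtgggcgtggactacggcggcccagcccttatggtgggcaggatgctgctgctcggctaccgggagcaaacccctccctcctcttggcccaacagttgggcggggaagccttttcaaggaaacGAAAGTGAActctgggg
Mavs: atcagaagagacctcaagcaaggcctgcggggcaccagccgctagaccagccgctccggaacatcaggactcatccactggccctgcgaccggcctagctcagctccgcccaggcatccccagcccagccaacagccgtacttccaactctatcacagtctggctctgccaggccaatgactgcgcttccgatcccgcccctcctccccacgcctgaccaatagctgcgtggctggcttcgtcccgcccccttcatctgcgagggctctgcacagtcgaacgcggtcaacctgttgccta
The core matches lay just downstream of the start, at bases 3 to 12 in Rigi, 33 to 42 in Ifih1 and 19 to 28 in Eif2ak2. In Rigi the match was on the opposite strand, so the printed letters are its reverse complement. A match is a description of the sequence and does not show that a factor binds there.

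The values were log2 intensities with array medians of 6.19 to 6.28, and the 11 arrays limit the precision of every value. Changes are differences of group means on the log2 scale, given with the standard error (±) that a limma fit to the 11 arrays returned; p-values were adjusted by Benjamini and Hochberg's method over all 22180 genes, with 0.05 as the threshold. The arrays with pIC lay apart from those without it, and ATRA+pIC replicate 2 lay between them: on a first principal component with 56.0% of the variance, the ATRA+pIC arrays were at 35.8, -4.53 and 23.3, the pIC arrays at 35 and 37.8, the ATRA arrays at -24.5 to -22.4 and the PBS arrays at -22.9 to -15.1. The HSC label was set against 13 marker genes, of which 7 fell and 0 rose with pIC against PBS. Of all genes, 5.75% fell and 8.94% rose in that comparison. The marker median of each array, set against the mean of PBS, came to -0.61, -0.14 and -0.51 on ATRA+pIC replicates 1, 2 and 3, -0.59 and -0.64 on the pIC arrays, -0.02 to 0.08 on the ATRA arrays and -0.02 to 0.03 on the PBS arrays. The stem cell receptor gene Kit was bright on every array, at 11.7 to 12.5. Kit, Mecom, Hlf, Ctnnal1 and Meis1, which were among the 7, missed the threshold without pIC replicate 2. In a sorted population, fewer cells of a type and less RNA per cell cannot be told apart.

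Markers of T and NK cells moved with pIC on 4 of the 5 arrays with pIC. The same median over 11 such genes came to 1.02, 0.04 and 0.93 on ATRA+pIC replicates 1, 2 and 3, 0.40 and 1.0 on the pIC arrays, 0.11 to 0.30 on the ATRA arrays and -0.10 to 0.07 on the PBS arrays. Their mean level was 5.94 to 7.61 on ATRA+pIC arrays, 6.83 to 7.27 on pIC arrays, 6.13 to 6.44 on ATRA arrays and 5.89 to 6.14 on PBS arrays. Nkg7 and Gzmb, cytotoxic granule genes, were the 2 of 11 that rose with pIC against PBS, where 8.94% of all genes rose. Nkg7 missed the threshold without pIC replicate 2, and Gzmb without any 1 of the PBS or pIC arrays. Erythroid markers had medians of 0.75, -0.24 and 0.61 on ATRA+pIC replicates 1, 2 and 3, 0.99 and 1.11 on the pIC arrays, -0.55 to -0.36 on the ATRA arrays and -0.23 to 0.12 on the PBS arrays, and 3 of 5 rose with pIC. Of 13 monocyte, macrophage and dendritic cell markers, Mpeg1 and Fcgr1 rose with pIC, but the list's median lay between -0.17 and 0.14 on all arrays; 0 of 7 B cell and 0 of 8 neutrophil markers passed the test with pIC against PBS. The neutrophil median was 0.92 on ATRA replicate 1, against -0.14 to 0.20 on the other 10 arrays, and Prtn3, a granule protease gene of that list, fell with ATRA+pIC against ATRA by 0.65 (adjusted p = 0.0245); it missed the threshold without ATRA replicate 1 or 2 or ATRA+pIC replicate 1 or 3. The values carry no detection call, so no marker can be called absent. How far other cells contribute to the results below was not tested.

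Injection of pIC was compared with PBS to ask how the sensors respond to the molecule they detect. Of the 10 genes, 8 rose, 0 fell, and the adaptor genes Ticam1 and Mavs did not pass the test. Of all genes measured, 14.7% changed, 8.94% upward and 5.75% downward. Because the 10 genes were chosen with earlier results of these data known, these shares are set beside them as a description. The rises ran from 1.82-fold for Trim25 to 14-fold for Zbp1, and the median change of the 10 was 1.48 on the log2 scale, against 0.0013 over all genes. The pIC arrays lay above every PBS array for the same 8 genes, which 23.4% of all genes also did.

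**Figure D1:**
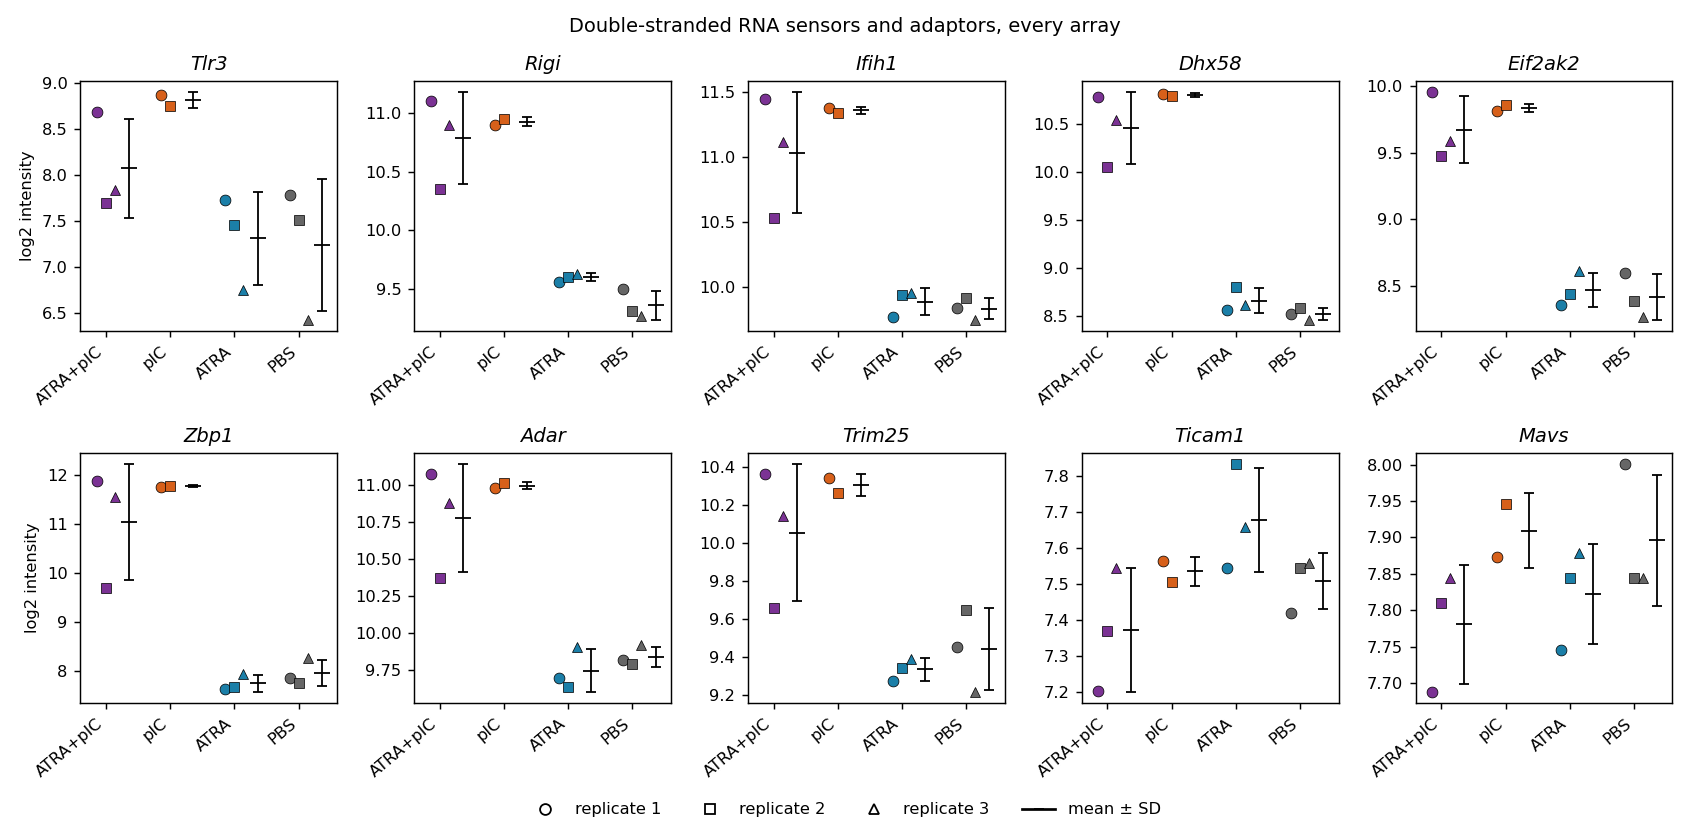
Log2 intensity (vertical axis) of the 10 genes on each of the 11 arrays, with 1 panel a gene; points are arrays, with a group's mean ± SD beside them, and ATRA+pIC, pIC, ATRA and PBS run from left to right. The scale differs between panels. In 8 panels the 2 pIC points lie above all PBS points, and the Ticam1 and Mavs panels show no such gap; ATRA+pIC replicate 2 is the lowest of its group in the same 8 panels.

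The cytosolic helicases rose together. Dhx58, which encodes the regulator LGP2, had 10.81 and 10.78 on the pIC arrays, against 8.52, 8.58 and 8.46 on the PBS arrays. It rose by 2.28 ± 0.17 (4.85-fold, adjusted p = 0.000228), the 58th largest rise of all genes. Rigi, the receptor for short RNA with a 5′ triphosphate, had 10.90 and 10.95 on the pIC arrays, against 9.50, 9.31 and 9.27 on the PBS arrays, a change of 1.57 ± 0.18 (2.96-fold, adjusted p = 0.00104). Both Rigi and Dhx58 were thus well separated between the groups, with a gap several times the spread within either. Ifih1, which encodes MDA5, the sensor of long double-stranded RNA, had 11.38 and 11.34 on the pIC arrays, against 9.84, 9.91 and 9.75 on the PBS arrays, and rose by 1.53 ± 0.20 (2.88-fold, adjusted p = 0.00211). These 3 helicase genes passed the threshold with each of the 11 arrays left out in turn.

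The effectors that bind double-stranded or Z-form RNA also rose. Zbp1, which can trigger necroptosis, had 11.76 and 11.79 on the pIC arrays, against 7.87, 7.76 and 8.27 on the PBS arrays. Its rise of 3.81 ± 0.49 (14-fold, adjusted p = 0.00186) was the 14th largest of all genes, and the 2 groups did not overlap. The fit shares its spread across the 4 groups, and Zbp1 varied most with ATRA+pIC (SD 1.18, against 0.02 with pIC and 0.27 with PBS). Its standard error may thus be too wide here and too narrow where ATRA+pIC is compared. Without ATRA+pIC replicate 2 the standard error of this rise was 0.16. Eif2ak2, the gene of the translation-arresting kinase PKR, had 9.82 and 9.86 on the pIC arrays, against 8.60, 8.38 and 8.26 on the PBS arrays, and rose by 1.42 ± 0.15 (2.68-fold, adjusted p = 0.000786). Adar, the editing enzyme, had 10.98 and 11.01 on the pIC arrays, against 9.82, 9.79 and 9.92 on the PBS arrays, and rose by 1.16 ± 0.17 (2.23-fold, adjusted p = 0.00299). Which transcripts of the 3 Adar starts the probe set detects was not tested. All 3 effector genes passed the threshold with each array left out.

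Tlr3 and Trim25 rose with less support. Tlr3 had 8.87 and 8.75 on the pIC arrays, against 7.78, 7.51 and 6.43 on the PBS arrays, so that the groups did not overlap but PBS replicate 3 lay more than 1 log2 unit below the other PBS arrays. Its change was 1.57 ± 0.41 (2.97-fold, adjusted p = 0.0278); adjusted p was 0.0507 without PBS replicate 2, 0.0603 without PBS replicate 3 (a change of 1.17), 0.14 without pIC replicate 1 and 0.127 without pIC replicate 2. Trim25 had 10.34 and 10.26 on the pIC arrays, against 9.45, 9.65 and 9.22 on the PBS arrays. It rose by 0.86 ± 0.18 (1.82-fold, adjusted p = 0.0116), and missed the threshold without pIC replicate 1 (adjusted p = 0.0809) or pIC replicate 2 (0.0727).

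The adaptor genes did not move measurably. Ticam1, the adaptor of TLR3, had 7.56 and 7.51 on the pIC arrays, against 7.42, 7.54 and 7.56 on the PBS arrays, and the arrays of the groups were interleaved. Its change was 0.03 ± 0.12 (95% interval -0.23 to 0.28, adjusted p = 0.919). Mavs, the adaptor of RIG-I and MDA5, had 7.87 and 7.95 on the pIC arrays, against 8.0, 7.84 and 7.84 on the PBS arrays, a change of 0.01 ± 0.09 (95% interval -0.18 to 0.21, adjusted p = 0.952). These intervals leave room for changes of up to 0.28 for Ticam1 and 0.21 for Mavs, well under the change of any of the 8 genes that rose. Mavs had the same value on 4 of the 11 arrays and Ticam1 on 3, a feature of these values that 8.64% of all genes shared on 4 or more arrays.

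**Figure D2:**
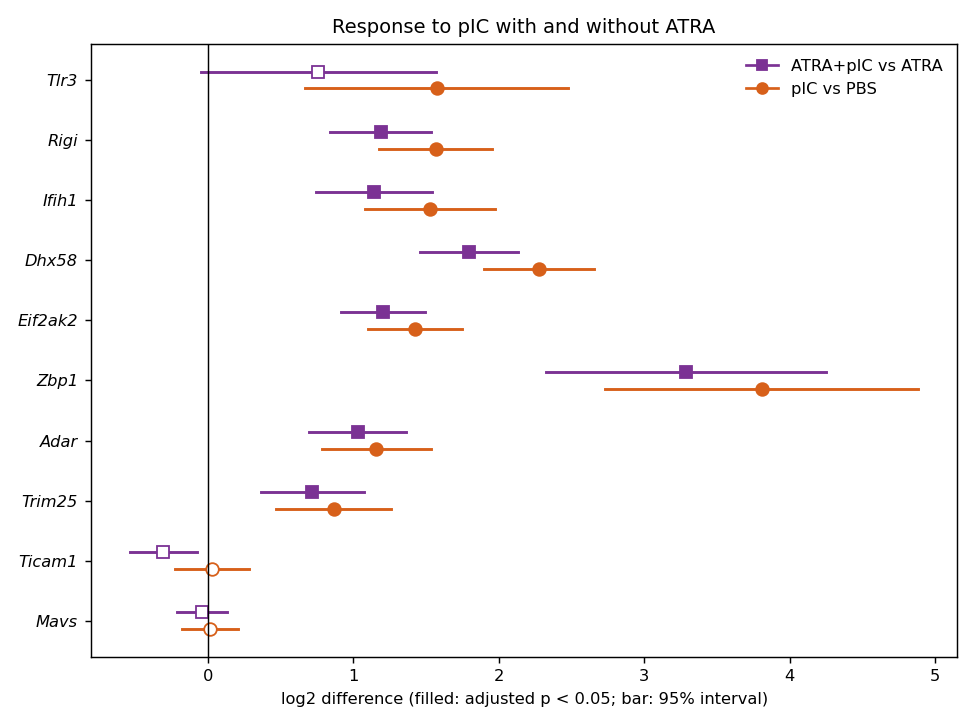
Change of each of the 10 genes on the log2 scale (horizontal axis) with pIC against PBS and with ATRA+pIC against ATRA; points are limma estimates, filled where the test was passed, and bars are 95% intervals. Zbp1 changed most in both comparisons, by 3.81 and 3.29, and the intervals of Mavs include 0 in both.

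The comparison of ATRA+pIC with ATRA asked whether the sensors respond to pIC in mice that had first received ATRA. Rigi, Ifih1, Dhx58, Eif2ak2, Zbp1, Adar and Trim25 rose, which made 7 of the 10, and 0 fell; of all genes 7.21% changed, 3.5% upward and 3.71% downward. Their ATRA+pIC arrays all lay above the ATRA arrays, as did those of 11.7% of all genes. The median change of the 10 was 1.09, against -0.0033 over all genes.

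Zbp1 again changed most. It had 11.89, 9.69 and 11.55 on ATRA+pIC replicates 1, 2 and 3, against 7.64, 7.68 and 7.95 on the ATRA arrays, a rise of 3.29 ± 0.44 (9.78-fold, adjusted p = 0.00284). ATRA+pIC replicate 2 lay about midway between the groups; without it the rise was 3.96 (15.6-fold). Dhx58 had 10.78, 10.05 and 10.53 on the ATRA+pIC arrays, against 8.56, 8.80 and 8.61 on the ATRA arrays, and rose by 1.79 ± 0.15 (3.46-fold, adjusted p = 0.000567). Rigi had 11.10, 10.35 and 10.90 on the ATRA+pIC arrays, against 9.56, 9.60 and 9.63 on the ATRA arrays, and rose by 1.19 ± 0.16 (2.28-fold, adjusted p = 0.00284). The 3 ATRA arrays of Rigi were nearly identical, and the lowest ATRA+pIC array still lay well above them.

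Eif2ak2, the PKR gene, had 9.95, 9.47 and 9.59 on the ATRA+pIC arrays, against 8.35, 8.44 and 8.61 on the ATRA arrays, and rose by 1.21 ± 0.13 (2.31-fold, adjusted p = 0.00125). Ifih1, the MDA5 gene, had 11.45, 10.53 and 11.12 on the ATRA+pIC arrays, against 9.77, 9.94 and 9.96 on the ATRA arrays, a change of 1.15 ± 0.18 (2.21-fold, adjusted p = 0.00667). Adar had 11.07, 10.37 and 10.88 on the ATRA+pIC arrays, against 9.70, 9.63 and 9.91 on the ATRA arrays, a change of 1.03 ± 0.15 (2.04-fold, adjusted p = 0.0049). In each of these 3 genes replicate 2 was the lowest ATRA+pIC array and remained above the ATRA arrays. Trim25, the RIG-I ligase, had 10.36, 9.66 and 10.14 on the ATRA+pIC arrays, against 9.27, 9.34 and 9.39 on the ATRA arrays, and rose by 0.72 ± 0.16 (1.64-fold, adjusted p = 0.0259). Trim25 missed the threshold without ATRA replicate 1, 2 or 3 (adjusted p = 0.0839, 0.0763 and 0.0637) and without ATRA+pIC replicate 1 or 3 (0.0919 and 0.0962). When the model held only the 6 arrays of these groups, Ifih1, Adar and Trim25 missed it, with adjusted p of 0.0621, 0.0539 and 0.0895.

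Tlr3 did not pass the test in this comparison. It had 8.68, 7.69 and 7.83 on the ATRA+pIC arrays, against 7.72, 7.46 and 6.75 on the ATRA arrays, and the groups overlapped. Its change was 0.76 ± 0.37 (95% interval -0.05 to 1.57, adjusted p = 0.265). Ticam1 had 7.20, 7.37 and 7.54 on the ATRA+pIC arrays, against 7.54, 7.83 and 7.66 on the ATRA arrays, a difference of -0.31 ± 0.10 (95% interval -0.54 to -0.08) whose adjusted p was 0.107. Mavs had 7.69, 7.81 and 7.84 on the ATRA+pIC arrays, against 7.74, 7.84 and 7.88 on the ATRA arrays, a difference of -0.04 ± 0.08 (adjusted p = 0.841). The groups overlapped or touched for both adaptor genes, and neither passed the threshold.

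With ATRA+pIC against PBS, which shares its PBS arrays with the comparison of pIC with PBS, 6 of the 10 genes rose and 0 fell; 1.61% of all genes rose and 1.51% fell (3.11% together). The changes were 3.08 ± 0.44 for Zbp1 (8.43-fold), 1.93 ± 0.15 for Dhx58, 1.43 ± 0.16 for Rigi, 1.26 ± 0.13 for Eif2ak2, 1.2 ± 0.18 for Ifih1 and 0.94 ± 0.15 for Adar, with adjusted p from 0.000488 to 0.0116. Trim25 changed by 0.61 ± 0.16 (adjusted p = 0.0675) and Tlr3 by 0.83 ± 0.37 (0.254). Adar missed the threshold without PBS replicate 2 (adjusted p = 0.0566) or ATRA+pIC replicate 3 (0.0577). Without ATRA+pIC replicate 2, Zbp1 rose by 3.75 (13.5-fold) and Trim25 passed, with a change of 0.81 and an adjusted p of 0.00281. With the 6 arrays of these groups alone, Ifih1, Zbp1 and Adar missed the threshold, with adjusted p of 0.0861, 0.0818 and 0.0909.

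**Figure D3:**
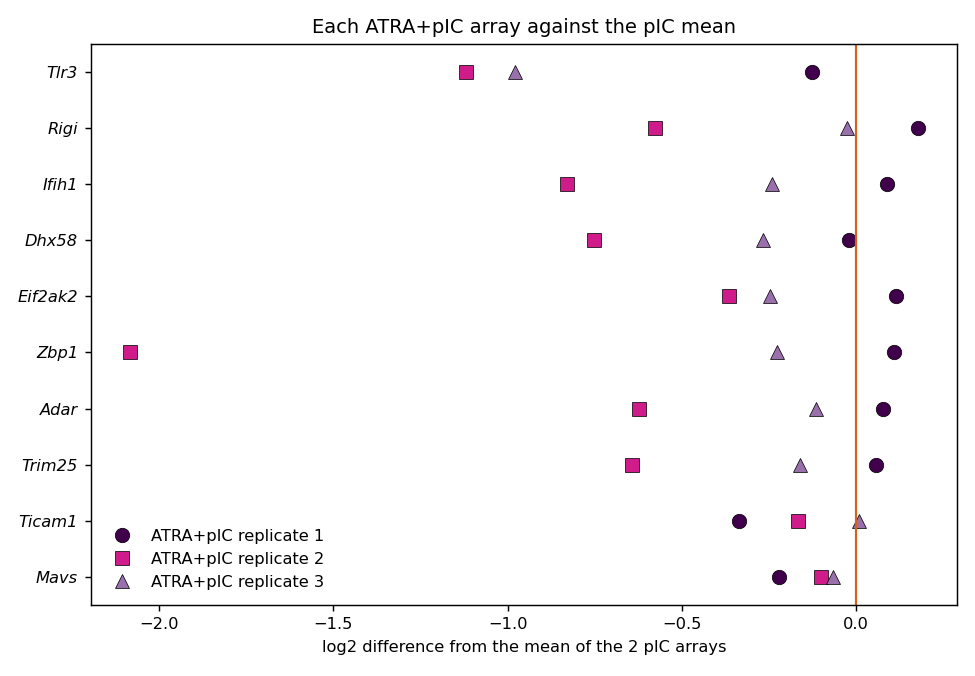
Level of each of the 10 genes on ATRA+pIC replicates 1, 2 and 3 (circles, squares, triangles), less the mean of the pIC arrays, on the log2 scale (horizontal axis; the vertical line is the pIC mean). Replicate 2 is the lowest point for all genes but Ticam1 and Mavs, at -2.08 for Zbp1 and -1.12 for Tlr3, and replicate 1 lies between -0.33 and 0.18 for all 10.

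Within the ATRA+pIC group the arrays differed in the same order for the genes that rose. Replicate 1 was the highest and replicate 2 the lowest for 8 of the 10 genes, all but Ticam1 and Mavs. Of all genes, replicate 2 was the lowest for 37.1%. The share with replicate 1 highest, or with the full order, was not counted. The first principal component over all genes held the same order, at 35.8, -4.53 and 23.3 on replicates 1, 2 and 3. Relative to the change with pIC against PBS, the Zbp1 level on ATRA+pIC replicates 1, 2 and 3 stood 108%, 50.9% and 99.7% of the way above the ATRA mean. For Rigi the percentages were 96.3%, 48.0% and 83.3%, for Ifih1 102%, 42.1% and 80.6%, and for Adar 115%, 54.2% and 98.2%. Dhx58 and Eif2ak2 reached 60.8% and 70.7% on replicate 2, whereas Trim25 reached 37.5% there. Tlr3 had 87.3%, 24.3% and 33.2% on replicates 1, 2 and 3, so replicate 3 was low as well. Its baselines varied widely, with an SD of 0.71 with PBS and 0.50 with ATRA. By limma, neither its difference from pIC (adjusted p = 0.57) nor its interaction (0.843) passed the test. On replicate 2 the T and NK marker median was 0.04 and the HSC marker median -0.14, against PBS arrays at -0.10 to 0.07 and -0.02 to 0.03, and the erythroid median was -0.24. The neutrophil median there was 0.20, against -0.03 to 0.05 on the PBS arrays. On that single array Rigi, Ifih1, Dhx58, Eif2ak2, Zbp1, Adar and Trim25 lay above every ATRA and every PBS array. Trim25 did so narrowly, at 9.66 against 9.65 on PBS replicate 2. How many of all genes did so was not counted, and what set this array apart was not tested.

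ATRA+pIC was compared with pIC to ask whether ATRA given first altered the sensors under pIC. Limma called 0 of the 10 genes and 0% of all genes, and at an unadjusted p under 0.05 there were 0 of the 10 and 2242 of all genes. The estimates were all below 0, with a median of -0.23 for the 10 genes against -0.02 over all genes. The lowest were those of Tlr3, at -0.74 ± 0.41 (95% interval -1.65 to 0.16), and of Zbp1, at -0.73 ± 0.49 (-1.81 to 0.34). Dhx58 differed by -0.35 ± 0.17 and Ifih1 by -0.33 ± 0.20, and adjusted p of the 10 genes ran from 0.52 to 0.833. The ATRA+pIC arrays all lay below both pIC arrays for Tlr3, Dhx58 and Mavs, as for 17.4% of all genes. Without ATRA+pIC replicate 2 the difference was -0.06 for Zbp1, -0.08 for Ifih1, -0.14 for Dhx58 and -0.02 for Adar. It was 0.08 for Rigi, -0.07 for Eif2ak2, -0.05 for Trim25 and -0.55 for Tlr3. Each of these was closer to 0 than over all arrays. Ticam1 stayed at -0.16, and Mavs went from -0.13 to -0.14, away from 0. The intervals over all arrays are wide enough to hold a loss of more than 1 log2 unit for Tlr3 and Zbp1. Without ATRA+pIC replicate 2 that of Zbp1 was -0.45 to 0.34 and that of Tlr3 -1.54 to 0.43. No statement of equal levels follows.

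**Figure D4:**
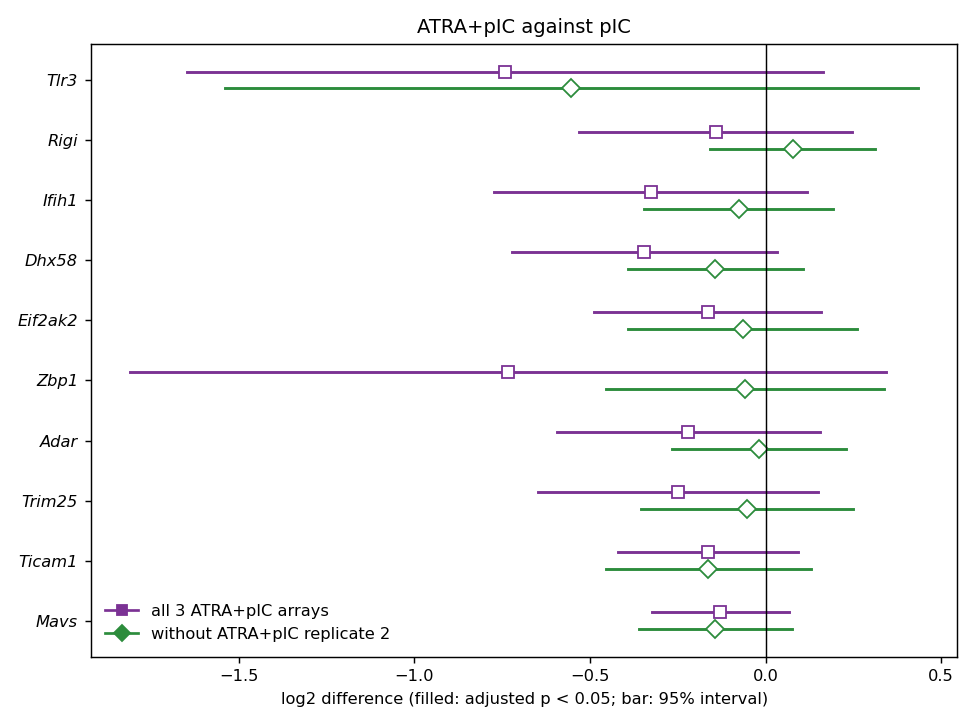
Difference of ATRA+pIC from pIC on the log2 scale (horizontal axis) for each of the 10 genes, over all arrays and without ATRA+pIC replicate 2; points are limma estimates and bars are 95% intervals. All intervals include 0, and the Zbp1 estimate is -0.73 over all arrays and -0.06 without replicate 2.

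ATRA alone was compared with PBS to ask whether it set the resting level of the sensors. Limma called 0 of the 10 genes and 0.00451% of all genes (1 gene); at an unadjusted p under 0.05 there were 0 of the 10 and 1508 of all genes. The largest estimate was that of Rigi, 0.24 ± 0.16 (95% interval -0.11 to 0.58, adjusted p = 0.85), whose ATRA arrays all lay just above its PBS arrays, as did those of 6.61% of all genes. Zbp1 differed by -0.21 ± 0.44, Ticam1 by 0.17 ± 0.10 and Dhx58 by 0.14 ± 0.15. The other 6 genes differed by less than 0.11 in either direction, and adjusted p of the 10 ran from 0.817 to 0.99. Replicate 3 had the lowest Tlr3 value in both groups, 6.75 with ATRA and 6.43 with PBS; without PBS replicate 3 the Tlr3 difference was -0.33 in place of 0.07.

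The interaction tested whether the response to pIC differed with ATRA, as the change of ATRA+pIC over ATRA less the change of pIC over PBS. It was called for 0 of the 10 genes and 0% of all genes, with 0 and 1390 at an unadjusted p under 0.05. The interaction uses the same ATRA+pIC and pIC arrays as the comparison of ATRA+pIC with pIC, so the signs in both are not independent. Its estimates were all below 0, with a median of -0.36 for the 10 genes against -0.02 over all genes. That of Dhx58 was -0.49 ± 0.23 (95% interval -0.99 to 0.02, adjusted p = 0.794), that of Ticam1 -0.33 ± 0.16 (-0.68 to 0.01, adjusted p = 0.794) and that of Tlr3 -0.81 ± 0.55 (-2.03 to 0.40, adjusted p = 0.843). Zbp1 had -0.52 ± 0.65, and 0.16 without ATRA+pIC replicate 2. In that setting Adar (0.08) and Trim25 (0.05) were also above 0, and the other genes stayed below 0. A passed test for Tlr3 with pIC against PBS and a missed one with ATRA+pIC against ATRA therefore does not show that its responses differed.

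The 8 genes that rose were picked because pIC lay above PBS, so a high pIC mean follows in part from that choice. Ordered by group mean, pIC was highest and ATRA+pIC next for all 8. The share of all genes with this order was not counted. Zbp1 averaged 11.04 ± 1.18 with ATRA+pIC, 11.78 ± 0.02 with pIC, 7.75 ± 0.17 with ATRA and 7.97 ± 0.27 with PBS (SD, n = 3, 2, 3 and 3). Rigi averaged 10.78 ± 0.39, 10.93 ± 0.04, 9.60 ± 0.03 and 9.36 ± 0.12 in the same groups. The spread was widest in the ATRA+pIC group for both. No difference between the neighbours in this order, pIC and ATRA+pIC or ATRA and PBS, passed the test for any of the 10 genes.

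For each of the 8 genes, the genes with the most similar values over the 11 arrays were sought by Pearson's r; the arrays form 2 clusters, with and without pIC, so a high r mostly restates that split and is given as a description. Zbp1 and Adar were each other's nearest gene of all measured (r = 0.997). Both proteins carry a domain that binds Z-form nucleic acid. Next to Zbp1 came Bst2, a surface protein that tethers budding virus, and Isg20, an RNA exonuclease. Nearest to Dhx58 was Oasl2 (0.995), followed by Pa2g4 and Oas3, and nearest to Eif2ak2 was Oas2 (0.993), followed by Oasl2 and Rnf213. Ifih1 was nearest to AW011738 (0.997), Xaf1 and Sp100, and Rigi to Gm4951 (0.993), Oasl2 and Slfn5. Adar was next nearest to Irgm2 and Gm12250, and Trim25 was nearest to Mov10, an antiviral RNA helicase (0.983), then to Nupr1 and Trim34a. Tlr3 stood apart, with the lower r of 0.943 to Olfr192, an olfactory receptor gene, and then Brpf1 and Syngr2.

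Around the 10 genes, 9 lists of pathway genes were counted with pIC against PBS, where 8.94% of all genes rose and 5.75% fell. The lists too were chosen with earlier results of these data known, so their counts are a description. The list of oligoadenylate synthases, which detect double-stranded RNA and make the second messenger of RNase L, also held Pde12, a phosphodiesterase that degrades that messenger. Of its 12 genes 7 rose and 0 fell, with a median change of 1.07. Of those that rose, 6 were Oas or Oasl genes and the other was Pde12 (0.48). Whether the protein of each Oas or Oasl gene makes that messenger was not tested. Pde12 missed the threshold without any 1 of the PBS or pIC arrays or ATRA+pIC replicate 3. Oas2 rose by 3.44 ± 0.24, Oas3 by 3.11 ± 0.28, Oas1g by 2.30 ± 0.20 and Oasl2 by 1.90 ± 0.18. These paralogs are close in sequence, and how the array's probes divide their signal was not tested. Of 6 partners of ZBP1 in cell death, 3 rose and 0 fell: Mlkl, the pore-forming executor of necroptosis, by 1.35 ± 0.20, the protease gene Casp8 by 0.51 ± 0.12 and the kinase gene Ripk3 by 0.36 ± 0.08. Fadd, an adaptor of Casp8, changed by 0.30 ± 0.10 (adjusted p = 0.0686). That list's median was 0.33.

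Downstream of the adaptors, 3 of 15 genes rose and 2 fell, with a median of 0.11. Irf7, whose protein switches on further interferon genes, rose by 3.42 ± 0.22 and Traf6, a ubiquitin ligase, by 0.47 ± 0.11; Tbkbp1, which binds the kinase TBK1, fell by 0.83 and Ikbke, an interferon-inducing kinase, fell by 0.43. Of 22 positive cofactors of the RIG-I-like receptors and TLR3, 7 rose and 1 fell, with a median of 0.23. The helicase-like Ddx60 rose by 2.25 ± 0.27, the zinc-finger antiviral protein gene Zc3hav1 by 1.10 ± 0.20, the MAVS-binding mitochondrial importer Tomm70a by 0.74 ± 0.13 and the phosphatase gene Ppp1ca by 0.37 ± 0.08. Of 27 negative regulators, 6 rose and 1 fell, with a median of 0.13; Nlrc5 rose by 0.88 ± 0.16, Rnf114 by 0.80 ± 0.14, Mfn2 by 0.48 ± 0.11 and Rnf5 by 0.44 ± 0.11. Nlrc5 is also known as an activator of MHC class I genes.

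**Figure D5:**
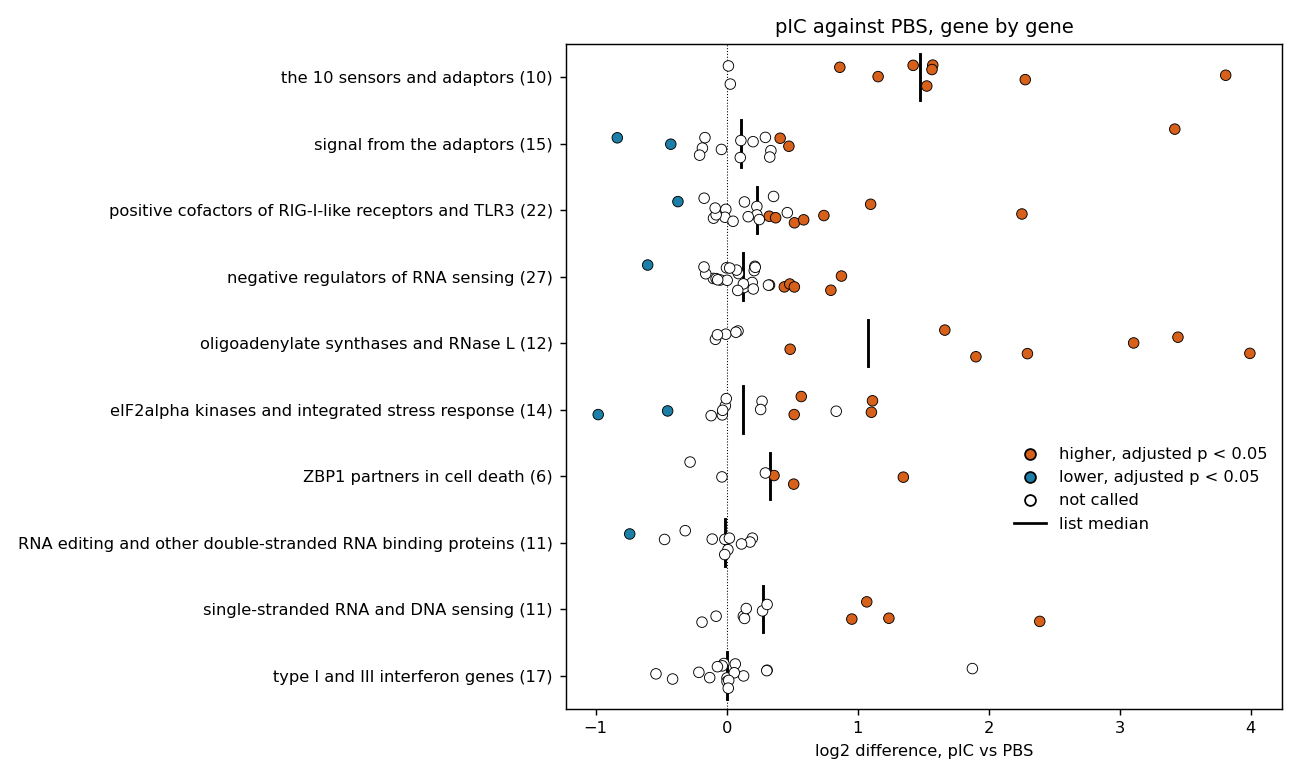
Change with pIC against PBS on the log2 scale (horizontal axis) for every measured gene of the 10 sensors and adaptors and of 9 pathway lists (rows); filled points passed the test, open points did not, and the bar is the list's median. The sensors have a median of 1.48 and the oligoadenylate synthase list, with Pde12, 1.07, and the other 8 medians lie between -0.01 and 0.33.

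In the integrated stress response, which PKR can start by phosphorylating eIF2alpha, 4 of 14 genes rose and 2 fell, with a median of 0.13. Asns, an amino acid synthase gene, rose by 1.11 ± 0.22, Ddit3 (CHOP) by 1.10 ± 0.20 and Ppp1r15b, a subunit of the phosphatase that reverses PKR's mark, by 0.52 ± 0.10. Ppp1r15a, the stress-induced counterpart of Ppp1r15b, fell by 0.98 (adjusted p = 0.000491). Of 11 genes for RNA editing and other double-stranded RNA binding proteins, 0 rose and 1 fell: the second editing enzyme Adarb1 fell by 0.74, opposite in sign to Adar. Of 11 sensors of single-stranded RNA and DNA and their partners, 4 rose and 0 fell, with a median of 0.27. Tlr7, a receptor for single-stranded RNA, rose by 2.39 ± 0.54, the DNA sensor gene Cgas by 1.24 ± 0.16, the nucleotide hydrolase gene Samhd1 by 1.07 ± 0.19 and the adaptor gene Myd88 by 0.96 ± 0.15.

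Of 17 type I and III interferon genes, 0 were called by limma with pIC, and their median was 0.0026. Ifnb1 had 5.23 and 8.18 on the pIC arrays, against 4.80, 4.69 and 5.0 on the PBS arrays, a change of 1.88 ± 0.60 (adjusted p = 0.0625). Without pIC replicate 1, which leaves the pIC group 1 array whose spread is assumed to be that of the other groups, Ifnb1 passed the test with a change of 3.35. Only pIC replicate 2 was well above the PBS arrays.

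Several of these counts rested on single arrays. Irf7, Ddx60, Oas2, Oas1g, Oas3, Oasl2, Ppp1r15a, Mlkl, Cgas and Myd88 passed with each array left out. Without pIC replicate 2, all the other pathway genes named above as risen or fallen missed the threshold; Traf6, Ikbke, Ppp1ca, Mfn2, Rnf5, Asns, Ppp1r15b, Ripk3, Casp8, Pde12 and Tlr7 also missed it without pIC replicate 1. Without PBS replicate 1 or 2, Rnf5, Ripk3 and Casp8, or Ikbke, Mfn2 and Casp8, missed it as well, with Pde12 in both cases. The positive cofactors that rose numbered 5 without PBS replicate 1 or 2, 3 without pIC replicate 1 and 1 without pIC replicate 2, and the negative regulators 3, 3, 2 and 0 in those settings. Downstream of the adaptors 2, 1 and 1 rose without PBS replicate 2, pIC replicate 1 and pIC replicate 2, and in the stress response 2 and 0 without pIC replicate 1 and 2. Of the ZBP1 partners 1 rose without PBS replicate 1 or either pIC array and of the single-stranded RNA and DNA sensors 2 without pIC replicate 2. Each setting without a pIC array compares 1 pIC array with PBS. The genes for editing and other double-stranded RNA binding proteins that fell numbered 0 without pIC replicate 2, 3 without ATRA+pIC replicate 1 and 2 without ATRA+pIC replicate 2.

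With ATRA+pIC against ATRA, the oligoadenylate synthase list had 6 of 12 genes up, all of them Oas or Oasl genes, and 0 down. The changes were 3.11 ± 0.21 for Oas2 and 2.76 ± 0.25 for Oas3. Of all genes, 3.5% rose and 3.71% fell in this comparison. The 22 positive cofactors had 3 up and 1 down, and the 27 negative regulators 3 up and 1 down. The 11 single-stranded RNA and DNA sensors had 3 up and 0 down, and the 6 ZBP1 partners 2 up and 0 down. The 14 stress response genes had 1 up and 2 down, and the 15 genes downstream of the adaptors 1 up and 1 down. The editing list of 11 had 0 up and Adarb1 down. These counts rested on single arrays, and so did the calls over all genes. With all arrays 7.21% of genes were called. That share was 2.15% to 3.4% without any 1 of the ATRA arrays, ATRA+pIC replicate 1 or ATRA+pIC replicate 3. Without any 1 of the ATRA arrays, ATRA+pIC replicate 1 or ATRA+pIC replicate 3, the positive cofactors had 1 up and 0 down, the negative regulators 1 or 2 up and 0 down, the single-stranded RNA and DNA sensors 0 or 1 up, and the ZBP1 partners 1 up. The negative regulators also had 2 up and 0 down without PBS replicate 3, and the ZBP1 partners 1 up without PBS replicate 1 or 2 or either pIC array. Without ATRA+pIC replicate 2, the positive cofactors had 6 up, the stress response 4 up and 1 down, the genes downstream of the adaptors 2 up and 2 down, and the editing list 3 down. The stress response had 0 up and 1 down without PBS replicate 3, any 1 ATRA array, either pIC array or ATRA+pIC replicate 3. The genes downstream of the adaptors had 1 up and 0 down without ATRA replicate 1 or 2 or ATRA+pIC replicate 1 or 3, and the editing list 0 down without ATRA replicate 1 or 3 or ATRA+pIC replicate 3. With a block for the replicate number or with cyclic loess, the ZBP1 partners had 1 up with ATRA+pIC against ATRA. With only the groups compared, they and the single-stranded RNA and DNA sensors had 0 up. In ATRA against PBS and in ATRA+pIC against pIC, limma called 0 genes of the 9 lists. The estimates with the smallest adjusted p in ATRA+pIC against pIC were those of Rnf5 (-0.36 ± 0.11, adjusted p = 0.318), Cgas (-0.50 ± 0.16, 0.355), Ifne (-0.29 ± 0.10, 0.361) and Fadd (-0.29 ± 0.10, 0.366).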

How the data were processed

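Total RNA of sorted HSCs was labelled with biotin and hybridised to 11 Affymetrix arrays, per the labels' protocols. For 41345 probe sets, log2 intensities were deposited. The submitters' processing notes name oligo 1.36.1, RMA (background correction, quantile normalisation and a summary per probe set) and limma 3.28.20, without order or role. Quantile normalisation gives all arrays 1 distribution, so a shift shared by most genes would not be seen; no sorted array departed from the average sorted array by more than 0.0984. The platform's gene table pairs 23521 probe sets with 1 gene symbol, 1814 with several and does not list 16010. Gene IDs of 23328 of the first matched the RefSeq table, and 0 symbols needed an update. The probe set with the highest mean was used for each of 22180 genes, 1082 of which had several.

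Limma 3.58.1 (R 4.3.3) was fitted with 4 group means to all 11 arrays (residual df 7, total df after moderation 10.72), and tests were two-sided. The 6 contrasts were adjusted each over all genes. Arrays correlated at 0.976 to 0.995, and 0 pairs were identical. The model was tested on simulated data. Alternatives were a block for the replicate number, cyclic loess, array weights, omission of the dimmest 40% of genes, probe sets averaged or kept apart, a model of only the groups compared, a trend and robust prior, and omission of each array.

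All 10 genes were reported in every contrast. From each pathway list up to 4 genes with the smallest adjusted p with pIC against PBS were named, and up to 2 from ATRA against PBS or ATRA+pIC against pIC; some of these last are not printed. The 3 most similar genes of each member called with pIC were named. The 10 genes and all lists were chosen with earlier results of these data known. Interaction estimates are differences of log2 changes. Python 3.11.15, numpy 2.4.6, pandas 2.3.3 and matplotlib 3.10.9 were used for tables and figures.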

Additional observations from a re-analysis of the deposited data

How the results depend on the processing

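With the model held to the groups compared, 4 of the 10 genes rose with ATRA+pIC against ATRA and 3 with ATRA+pIC against PBS, in place of 7 and 6; the cause was not tested beyond the smaller number of arrays. With array weights, without the dimmest genes, or with a trend and robust prior, 7 passed with ATRA+pIC against PBS, Trim25 being added (0.77 with weights, 0.61 in the others), as it was without ATRA+pIC replicate 2 (0.81). With each array left out, 6 to 8 rose with pIC against PBS, 6 to 7 with ATRA+pIC against ATRA and 5 to 7 with ATRA+pIC against PBS, and 0 passed in the other 3 contrasts. The replicate block left the counts at 8, 7 and 6; samples of the same number did not deviate together (r from -0.11 to 0.10 over 15 pairs, 0 over 0.1), and it moved the count over all genes for pIC against PBS to 2835, from 3260. Omitting pIC replicate 1 or 2 took that count to 963 or 664, and omitting PBS replicate 1 or 2 took it to 2083 or 1959. With ATRA+pIC against ATRA it was 1599 over all arrays, 4588 with array weights, 3214 without ATRA+pIC replicate 2, 305 with only the groups compared, and 476 to 755 without any 1 of the ATRA arrays, ATRA+pIC replicate 1 or ATRA+pIC replicate 3. With ATRA+pIC against PBS it was 690, 3127 with array weights, 1212 without the dimmest genes, 1044 with a trend and robust prior, 70 with only the groups compared, and 159 to 2469 with 1 array left out. Cyclic loess gave 1449 genes higher and 1521 lower with pIC against PBS, where the values as deposited gave 1984 and 1276. Array weights called 112 genes with ATRA+pIC against pIC, none of them among the 10. Changes of sign were seen in values that had not passed the test: Mavs with pIC against PBS (-0.025 with cyclic loess), with ATRA+pIC against ATRA (0.00059 with array weights) and in the interaction (0.010 with cyclic loess); the cause was not tested. With 1 array left out, the ranges were -0.017 to 0.057 for Ticam1 and -0.023 to 0.065 for Mavs with pIC against PBS, -0.081 to 0.0046 for Mavs with ATRA+pIC against ATRA, -0.30 to 0.077 for Rigi with ATRA+pIC against pIC, -0.33 to 0.35 for Tlr3, -0.024 to 0.14 for Eif2ak2 and -0.22 to 2.4e-05 for Trim25 with ATRA against PBS, and -0.94 to 0.16 for Zbp1, -0.27 to 0.076 for Adar and -0.30 to 0.052 for Trim25 in the interaction.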

Other observations

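The values of Ifnb1, the gene of interferon beta that the sensors induce, were chosen for a closer description after they had been seen. Ifnb1 had 5.33, 4.79 and 4.88 on the ATRA+pIC arrays, 5.23 and 8.18 on the pIC arrays, 4.74, 4.94 and 4.64 on the ATRA arrays and 4.80, 4.69 and 5.0 on the PBS arrays. Its difference of 2.95 between pIC replicates 2 and 1 was the largest of all 22180 genes. The only other gene with a difference of at least 2 was Hspa1a, a heat shock chaperone gene, with 6.02 on pIC replicate 1 and 8.07 on pIC replicate 2. No sensor or adaptor gene followed this split: Zbp1 had 11.76 and 11.79 on the same arrays, Rigi 10.90 and 10.95, and Dhx58 10.81 and 10.78.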
